A study of Mus musculus with 60 samples.

Results

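The 9 genes described here are transcription factors that mark the mesoderm and the endoderm of the early mouse embryo: Eomes, Mixl1, Gsc, Gata4, Gata6, Sox17, Foxa2, Cdx1 and Cdx2. They were chosen by gene symbol, and they are 9 of the 19938 symbols with a tested probe set. Each of them had 1 probe set on the array, so no choice between probe sets was needed. The cells were R1, an established line of mouse embryonic stem cells, grown on feeder cells, depleted of feeders and then exposed for 6 h while attached and undifferentiated. RNA was measured on 60 Affymetrix arrays, 3 for each of 20 groups, in log2 signal units.

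Each group received a single agent, and the reference group, on which every comparison with the solvent rests, received DMSO at 0.1%. The labels class 10 compounds as teratogens, meaning agents that cause malformations. These were (-)-d-penicillamine at 1 mM, (+/-)-thalidomide at 0.35 mM, 5-azacytidine, all-trans retinoic acid at 0.024 mM, dexamethasone (spelled Dexamethazone in the labels) at 0.1 mM, dimethadione at 1 mM, fluconazole at 1 mM, topiramate at 1 mM, methotrexate at 0.028 µM and valproic acid (VPA) at 1 mM. For 5-azacytidine the labels disagree, with 0.23 µM in one field and 23 µM in another. The 9 compounds classed as non-teratogens were chlorthalidone at 1 mM, clozapine at 0.028 mM, glybenclamide at 0.37 mM, hydrochlorothiazide at 1 mM, loratadine at 0.043 mM, metoclopramide at 0.17 mM, ondansetron at 0.054 mM, paracetamol at 1 mM and sulfasalazine at 1 mM. The labels cite the IC10, a dose that cuts viability by 10%, for 9 compounds: clozapine, 5-azacytidine, glybenclamide, retinoic acid, dexamethasone, loratadine, metoclopramide, ondansetron and methotrexate. The others, apart from thalidomide, were at the 1 mM ceiling. Doses and their basis therefore differ between compounds. The model is 1 cell line without embryo tissue at 1 exposure time, and the labels do not say that the 3 arrays of a group came from separate cultures. The p-values measure the spread between these arrays, which may be technical.

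In the embryo, Nodal and Wnt signals switch on Eomes and Mixl1 in the primitive streak, the strip of cells through which mesoderm and endoderm form. Gsc marks the anterior streak and the organiser, Sox17 and Foxa2 mark endoderm, and Gata4 and Gata6 act in extraembryonic endoderm and later in gut and heart. Cdx1 and Cdx2 give posterior cells their identity, Cdx1 is a known direct target of retinoic acid, and Cdx2 is also required in the trophectoderm, the outer layer of the blastocyst. Undifferentiated embryonic stem cells express most of these factors weakly, with a minority of cells showing higher levels.

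Promoter sequence from RefSeq (GRCm38.p6, 250 bases before to 50 bases after the gene's start) was used for 4 of the 9 genes. The search for the 9 genes left out the windows of a whole chromosome, so a gene without a window here may have one in RefSeq. Both windows shown here are single windows of their gene, for the factor that fell with most compounds and for a factor called with none. The Eomes window lies at chr9:118477939-118478238 on the plus strand, and the Gsc window at chr12:104473187-104473486 on the minus strand. Capitals mark every match, on either strand, to the 5 motifs searched: CCAAT (the CCAAT box), TATAAA (the TATA box), AGGTCA (a nuclear receptor element), CTTTGAA (TCF/LEF) and TTTATG (CDX).
Eomes: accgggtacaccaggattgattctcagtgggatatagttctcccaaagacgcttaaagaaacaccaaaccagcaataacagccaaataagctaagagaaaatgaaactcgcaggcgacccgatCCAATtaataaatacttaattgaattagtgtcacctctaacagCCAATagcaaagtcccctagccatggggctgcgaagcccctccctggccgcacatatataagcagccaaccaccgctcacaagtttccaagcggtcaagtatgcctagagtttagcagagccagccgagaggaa
Gsc: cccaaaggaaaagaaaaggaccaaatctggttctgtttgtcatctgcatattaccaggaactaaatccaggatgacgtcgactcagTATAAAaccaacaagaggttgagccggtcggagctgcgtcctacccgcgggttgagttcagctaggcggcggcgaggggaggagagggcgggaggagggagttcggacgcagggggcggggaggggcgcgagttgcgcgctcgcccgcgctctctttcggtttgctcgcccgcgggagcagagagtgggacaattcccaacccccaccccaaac
CCAAT stands at positions 124 and 167 of the Eomes window, counted from its 5′ end, and TATAAA at position 87 of the Gsc window. Of all 32851 RefSeq windows of this length, 37.4% hold CCAAT, 13.6% TATAAA, 16.3% AGGTCA, 5.14% CTTTGAA and 11.9% TTTATG. The windows differ in base composition, with 47.3% G or C for Eomes and 60.3% for Gsc against a median of 52.7%. A match is a description of these letters, not of a bound site.

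Over the 9 factors and 19 compounds, 12 of 171 comparisons with DMSO were called, 4 higher and 8 lower (called means a Benjamini-Hochberg adjusted p of under 0.05 in limma, adjusted over the 21789 tested probe sets of a comparison). That is 7.02% of the factors' comparisons, beside 5.04% of those of all tested probe sets. Eomes gave 7 of the calls, all lower. Gata6 with retinoic acid was the largest change, a 1.83-fold rise. Cdx1, Mixl1, Gata4 and Foxa2 gave 1 call each, and Gsc, Sox17 and Cdx2 gave none. When all 20 groups were compared at once with limma's moderated F test, 7 of the 9 factors passed, in a comparison in which 74.1% of all tested probe sets passed. The exceptions were Gsc (adjusted p = 0.245) and Sox17 (adjusted p = 0.210). Every value below is a log2 signal or a difference of log2 signals for 1 probe set. Levels of different probe sets are not set against each other, apart from a comparison with the median of all tested probe sets (8.09). Averaged over the 60 arrays, Eomes, Mixl1, Gata6, Sox17, Foxa2 and Cdx2 lay below that median. Whether these dim probe sets measure transcript above background was not tested.

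**Figure D1:**
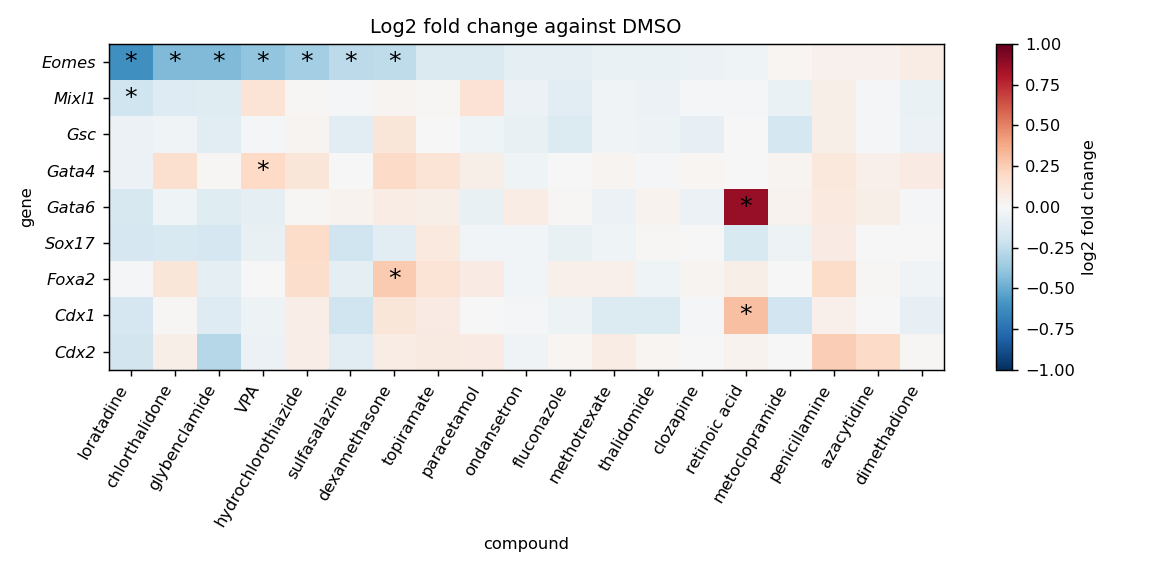
Log2 fold change against DMSO (colour) of the 9 factors under each of the 19 compounds, with an asterisk on each of the 12 comparisons called. Eomes holds 7 of the asterisks, and the Gata6 value with retinoic acid, 0.87, is the highest.

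Of the array medians, that of penicillamine replicate 2 was highest (7.79), and the other 59 lay between 7.58 and 7.71. Interquartile ranges ran from 2.97 to 3.31, the lowest being those of dexamethasone replicate 3 (2.998) and of the first 2 hydrochlorothiazide arrays (2.97 and 2.99). No 2 arrays were identical. The 11 markers of embryonic stem cells, among them Pou5f1, Sox2 and Nanog, were bright on every array: their mean per array was lowest with VPA (11.77 to 11.79) and highest with sulfasalazine (12.15 to 12.19), and DMSO lay at 12.05 to 12.09. With VPA 7 of these 11 fell (63.6%, beside 11.0% of all probe sets lower), and with paracetamol 6 (54.5%, where 8.76% of all probe sets were called in either direction). The 12 fibroblast markers, which feeder cells would carry, had means of 8.38 to 8.68 per array. Most were called with loratadine, 1 higher and 3 lower (33.3%, beside 19.2% of all probe sets). Retinoic acid called 16.7% of the 12 (beside 9.82%), and VPA 16.7% (beside 26.5%). In these bulk cultures, fewer cells of a type and less RNA per cell cannot be told apart.

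Eomes, a T-box factor required for mesoderm and definitive endoderm, fell with 7 compounds. Its 3 DMSO arrays read 8.04, 8.07 and 8.27. With loratadine, an antihistamine, the arrays read 7.48, 7.46 and 7.60. The drop was -0.61 ± 0.067 (SE, 3 arrays a group), 1.53-fold, with an adjusted p of 8.37e-10 in limma. Loratadine called 2 of the 9 factors, both lower, where it called 19.2% of all probe sets (8.26% lower).

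With chlorthalidone, a diuretic, the Eomes arrays read 7.77, 7.64 and 7.65. This is a difference of -0.44 ± 0.067 (limma adjusted p = 1.50e-05), the single factor called with this compound, beside 2.58% of all probe sets (1.14% lower). Glybenclamide, a blocker of ATP-sensitive potassium channels, also gave 1 call among the 9, beside 9.54% of all probe sets (2.75% lower). Its Eomes arrays lay at 7.65, 7.69 and 7.72, which is -0.44 ± 0.067 (limma adjusted p = 6.45e-06). VPA, an inhibitor of histone deacetylases, gave Eomes values of 7.68, 7.81 and 7.70, and a difference of -0.40 ± 0.067 (limma adjusted p = 5.08e-06). VPA called 2 of the 9 factors, where it called 26.5% of all probe sets (15.5% higher, 11.0% lower). In these 4 groups the highest array stood below the lowest DMSO array. All 4 differences remained called, and lower, under each of the 14 alternatives in which Eomes was tested.

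The other 3 falls of Eomes were smaller. Hydrochlorothiazide, like chlorthalidone a diuretic, gave arrays of 7.67, 7.71 and 7.98 and a difference of -0.34 ± 0.067 (limma adjusted p = 0.00579), its single call among the 9 beside 2.17% of all probe sets (1.87% lower). Arrays 1 and 2 of that group, the low ones for Eomes, are also 2 of the 3 arrays of low interquartile range. Sulfasalazine, an anti-inflammatory drug, gave 7.91, 7.82 and 7.86, a difference of -0.26 ± 0.067 (limma adjusted p = 0.0107), its 1 call beside 8.90% of all probe sets (3.50% lower). With dexamethasone, a glucocorticoid, the arrays read 7.80, 7.86 and 7.97 and the difference was -0.25 ± 0.067 (limma adjusted p = 0.0193). Dexamethasone called 2 of the 9, 1 in each direction, beside 6.25% of all probe sets (1.51% higher, 4.74% lower). All 9 arrays were below the 3 DMSO arrays, but by margins that depended on which arrays were kept. Without DMSO replicate 3, the highest of the 3, none of the 3 remained called: the differences were -0.27 (hydrochlorothiazide, limma adjusted p = 0.135), -0.19 (sulfasalazine, 0.0618) and -0.18 (dexamethasone, 0.200). The hydrochlorothiazide call was also lost without its replicate 1 (limma adjusted p = 0.143) or 2 (0.0920), the dexamethasone call without its replicate 1 (0.0616) and the sulfasalazine call without its replicate 2 (0.0677). With the interquartile range of the arrays as a covariate, hydrochlorothiazide (-0.24, limma adjusted p = 0.323) and dexamethasone (-0.16, 0.199) were not called either. Without the 3 arrays of low range the hydrochlorothiazide difference, which then rests on 1 array, was -0.15 (limma adjusted p = 1.00). Against the average of the remaining 18 compounds, Eomes was at -0.08 with dexamethasone (limma adjusted p = 0.180) and at -0.10 with sulfasalazine (0.162).

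The remaining 12 compounds left Eomes between -0.14 (topiramate) and 0.07 (dimethadione) of DMSO, and none was called by limma, with 2 of the 12 at an unadjusted p of under 0.05 (topiramate and paracetamol). Retinoic acid was among them, with arrays of 8.16, 8.05 and 8.06. In the order of the 20 group means, loratadine was lowest (7.51 ± 0.075 SD) and chlorthalidone next (7.69 ± 0.073). The step between them, 0.17, was the single step between neighbours larger than 0.13, the difference that the pooled spread of the arrays allows at the 95% level. From chlorthalidone up to dimethadione (8.20 ± 0.050), no neighbour differed from the next beyond that spread.

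**Figure D2:**
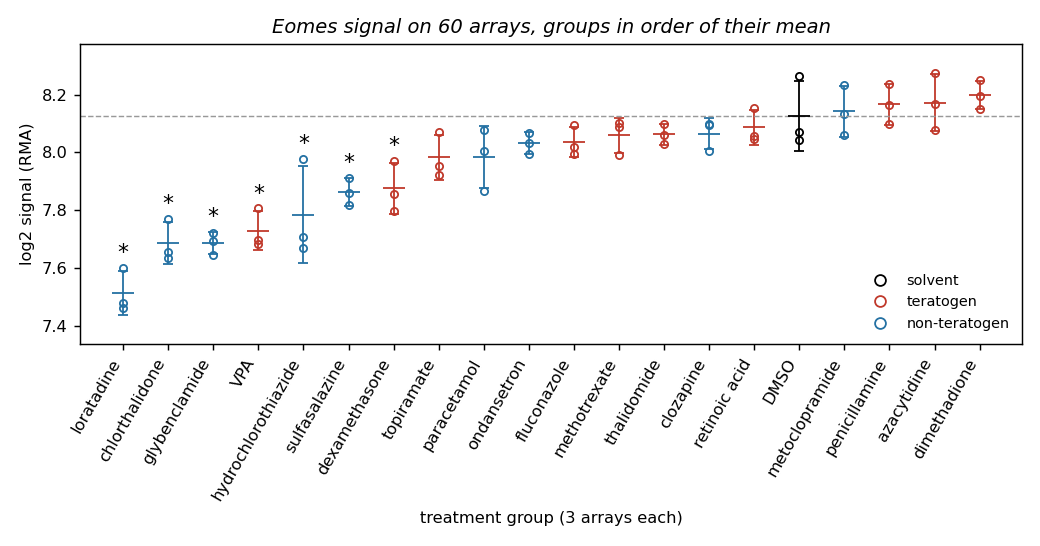
Eomes log2 signal on each of the 60 arrays, by group in order of the mean; horizontal lines are group means, bars 1 SD, the dashed line the DMSO mean, colours the class, and asterisks mark compounds called against DMSO. The 7 called groups lie wholly below the DMSO arrays (8.04 to 8.27), and loratadine is lowest (7.46 to 7.60).

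Of the 7 compounds with lower Eomes, 5 are classed as non-teratogens and 2, dexamethasone and VPA, as teratogens. Lefty1, an antagonist and target gene of Nodal, was called lower with 7 compounds, and they are the same 7. With these 7 compounds, between 1.14% (chlorthalidone) and 11.0% (VPA) of all probe sets were called lower. Nodal itself was called lower with 1 compound, VPA. All 19 comparisons share the DMSO arrays, so the values are given side by side. Where Eomes fell by 0.61 with loratadine, Lefty1 fell by 0.77 (from 9.33 to 8.55). The Lefty1 differences were -0.75 with chlorthalidone, -0.78 with glybenclamide, -0.60 with dexamethasone and -0.51 with VPA. Those with hydrochlorothiazide (-0.32) and sulfasalazine (-0.26) passed the threshold narrowly, with limma adjusted p of 0.0437 and 0.0495. With retinoic acid Lefty1 rose by 0.36 (limma adjusted p = 0.00409), while Eomes there was -0.04 ± 0.067. Lefty2, the second antagonist, fell with 8 compounds: 6 of the 7 (sulfasalazine was the exception, at -0.21) and also retinoic acid (-0.34) and paracetamol (-0.66).

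Over the 20 group means, the 3 genes whose pattern was most like that of Eomes were Ints13 (Pearson r 0.93, Spearman rho 0.92), Lefty1 (r 0.89, rho 0.83) and Jmjd6 (r 0.89, rho 0.79). Without loratadine and chlorthalidone, the groups farthest from the median of Eomes, r was 0.88, 0.85 and 0.80. The points of these correlations share arrays between the genes, and they are given as a description.

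**Figure D3:**
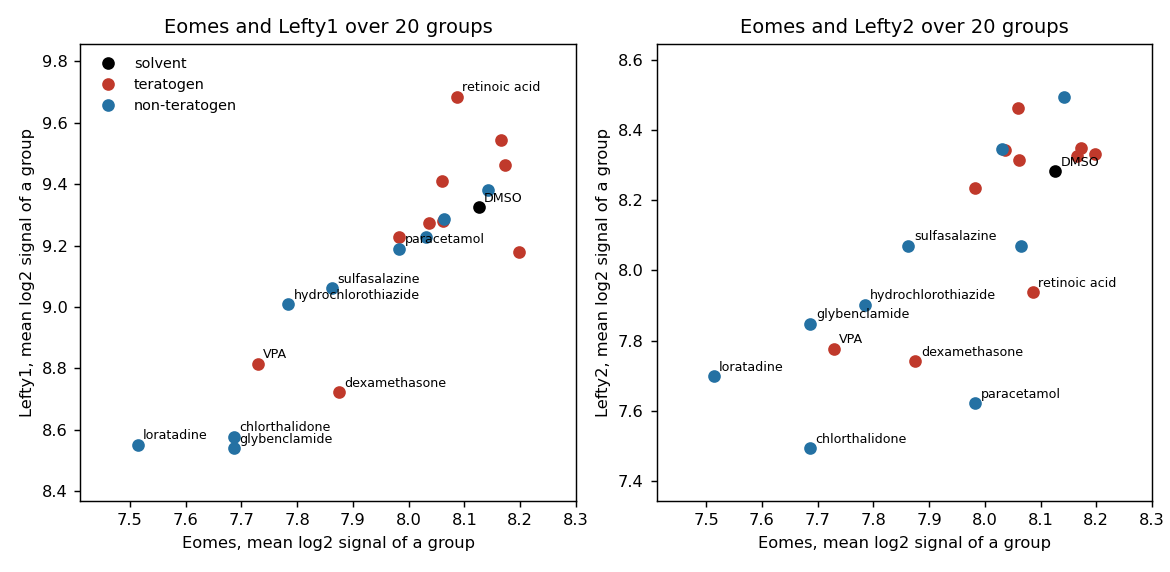
Mean log2 signal of Lefty1 (left) and Lefty2 (right), on the vertical axes, against that of Eomes, on the horizontal axes, in the 20 groups, coloured by class. The 7 compounds with lower Eomes also have the lowest Lefty1 means, from 8.54 (glybenclamide) to 9.06 (sulfasalazine), below DMSO at 9.33. For Lefty2, paracetamol (7.62) and retinoic acid (7.94) are low while Eomes was not called.

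The wider list of Nodal, Wnt and BMP signalling genes, most of them feedback targets, had 20 measured members of 22. With VPA 5 of these 20 rose and 10 fell (75% called, beside 26.5% of all probe sets; list median -0.19, all probe sets -0.01). Falling with VPA were Foxh1 (-0.80), the DNA-binding partner of Smad proteins in Nodal signalling, Bmp4 (-0.57), the Wnt effector Lef1 (-0.50) and Nodal itself (-0.33). Rising with VPA were Id1 (0.82), Id2 (0.46) and Id3 (0.29), which are known targets of BMP, and the receptor gene Acvr1b (0.27). The markers of embryonic stem cells were lower in the same group (7 of 11 fell), and their part in these values was not tested. Tdgf1 is a member of both lists. Loratadine gave 1 higher, Acvr1b (0.43), and 7 lower (40% called, beside 19.2%), among them Bmp4 (-0.49), Id3 (-0.38) and Axin2 (-0.25). Dexamethasone had 0 higher and 5 lower (25%, beside 6.25% of all probe sets). Chlorthalidone and glybenclamide had 0 and 3 each (15%, beside 2.58% and 9.54%). Hydrochlorothiazide had 0 and 2 (10%, beside 2.17%), and sulfasalazine 1 and 1 (10%, near its 8.90%). Paracetamol, with which Eomes was not called (-0.14, limma adjusted p = 0.220), had 6 lower (30%, beside 8.76%). The markers of embryonic stem cells were lower there as well (6 of 11 fell), which was not tested further. With retinoic acid Nodal (0.32) and Lefty1 rose, and Lefty2 and Lef1 (-0.85) fell (20%, beside 9.82%).

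Mixl1, a homeobox factor of the primitive streak, was called with 1 compound. Its DMSO arrays read 7.60, 7.65 and 7.45, and its loratadine arrays 7.44, 7.39 and 7.28. The groups just failed to overlap. The difference was -0.20 ± 0.066 (limma adjusted p = 0.0289). It was lost without DMSO replicate 1 (-0.18, limma adjusted p = 0.0939), without DMSO replicate 2 (-0.16, 0.173) or without loratadine replicate 3 (-0.15, 0.166), and with the interquartile range as a covariate (0.113). The highest Mixl1 means were those of paracetamol (7.71) and VPA (7.71), 0.14 above DMSO in each case and not called (limma adjusted p = 0.202 and 0.125).

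Gsc, the homeobox factor of the organiser, was called with none of the 19 compounds by limma, with 1 at an unadjusted p of under 0.05 (metoclopramide). Its DMSO arrays read 8.06, 8.30 and 8.12, and its differences ran from -0.18 (metoclopramide) to 0.12 (dexamethasone), each ± 0.083. The promoter printed above for Gsc therefore belongs to a gene for which these arrays show no called response.

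The primitive streak and mesoderm list, without the 9 factors, had 30 measured genes of 32. Retinoic acid raised 4 of them, Tbx3 (0.51), Snai1 (0.34), Nodal (0.32) and Foxc2 (0.23), and lowered Evx1 (-0.30) and Fgf8 (-0.25). Nodal, Wnt3 and Sp5 are also members of the signalling list. That is 20% called, beside 9.82% of all probe sets, with a list median of -0.10 and -0.03 over all probe sets. VPA raised 4 and lowered 6 of the 30 (33.3%, beside 26.5% of all probe sets), with Dll3 (0.42), a Notch ligand family member, highest and Tbx3 (-0.67) lowest. Loratadine called 3 (10%, below its 19.2% over all probe sets), of which Dll1 (0.29) rose and Meox1 (-0.30) and Wnt3a (-0.29) fell. Sulfasalazine lowered 3 (10%, beside 8.90%) and paracetamol 1 (3.33%, beside 8.76%). With chlorthalidone, glybenclamide, hydrochlorothiazide and dexamethasone, all of which lowered Eomes, none of the 30 was called by limma. These compounds called 2.58%, 9.54%, 2.17% and 6.25% of all probe sets, shares at which a list of 30 would hold few calls.

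Gata6, a zinc finger factor of primitive endoderm, rose with retinoic acid. The DMSO arrays read 7.94, 7.83 and 7.83, and the retinoic acid arrays 8.88, 8.75 and 8.58. All 3 treated arrays stood well above all DMSO arrays. The difference was 0.87 ± 0.092 (limma adjusted p = 3.17e-10). Retinoic acid called 2 of the 9 factors, both higher, where it called 9.82% of all probe sets (5.90% higher). The rise remained called in each of the 14 alternatives in which Gata6 was tested, at 0.80 to 0.95.

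With the other 18 compounds Gata6 lay between -0.16 (loratadine) and 0.10 (penicillamine) of DMSO. None of these was called by limma, and none had an unadjusted p of under 0.05. In the order of the group means, retinoic acid (8.74 ± 0.153 SD) was followed by penicillamine (7.96), a step of 0.78.

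Cdx1, a caudal homeobox factor, was called with retinoic acid too, but by a smaller margin. Its DMSO arrays spread over 8.25, 8.46 and 8.08, and its retinoic acid arrays read 8.66, 8.52 and 8.51. The lowest treated array was just above the highest DMSO array. The difference was 0.30 ± 0.092, 1.23-fold (limma adjusted p = 0.0272). The call was lost without DMSO replicate 1 (limma adjusted p = 0.0793) or 3 (0.21, 0.167), without retinoic acid replicate 1 (0.138) or 2 (0.0522), and in a fit of these 6 arrays alone (0.132).

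Cdx2, its paralogue, was not called with retinoic acid (0.03 ± 0.097) nor, by limma, with any compound, with 2 at an unadjusted p of under 0.05. Its arrays in DMSO read 7.61, 7.71 and 7.28, the widest spread of the 9 in that group. The lowest Cdx2 mean was that of glybenclamide (7.15, 7.28 and 7.33), -0.28 ± 0.097 from DMSO and short of the threshold (limma adjusted p = 0.0565). The highest was that of penicillamine (7.62, 7.99 and 7.72), at 0.24 ± 0.097 (limma adjusted p = 0.494). The array values of both groups overlapped those of DMSO.

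**Figure D4:**
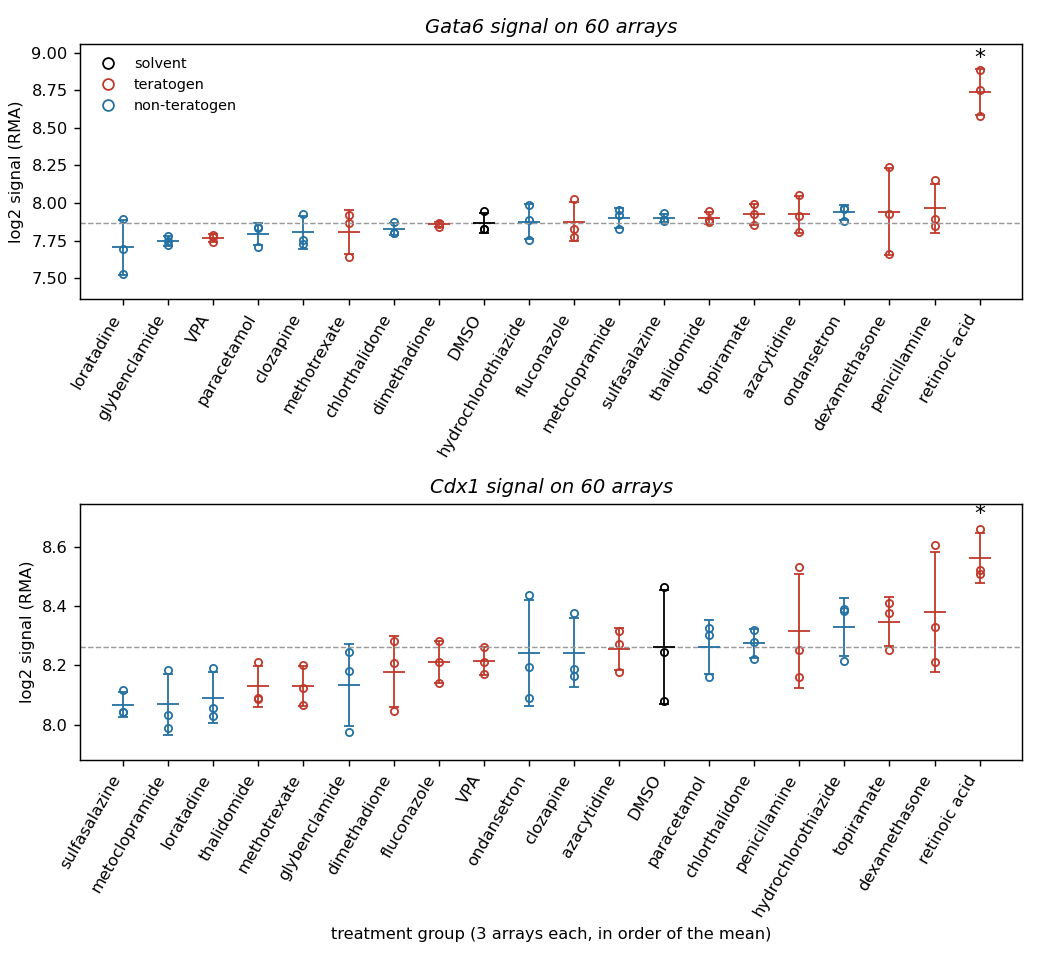
Log2 signal of Gata6 and of Cdx1 on each of the 60 arrays, by group in order of the mean; horizontal lines are group means, bars 1 SD, the dashed line the DMSO mean, colours the class, and asterisks mark called compounds. The 3 retinoic acid arrays of Gata6 (8.58 to 8.88) lie apart from the other groups, while those of Cdx1 (8.51 to 8.66) lie just above the highest DMSO array (8.46) and overlap arrays of dexamethasone and penicillamine.

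The genes most like Gata6 over the 20 group means were Dhrs3 (Pearson r 0.97, Spearman rho 0.63), Meis2 (r 0.97, rho 0.58) and Hoxa5 (r 0.96, rho 0.57). Without retinoic acid and loratadine r was 0.58, 0.64 and 0.48. Those most like Cdx1 were Rgma (r 0.92, rho 0.87), Kcnh1 (r 0.91, rho 0.87) and Hoxb5 (r 0.89, rho 0.83). Without retinoic acid and sulfasalazine they kept r of 0.84, 0.81 and 0.79. Cdx1 also ran opposite to the interquartile range of the arrays (rho -0.80), and the part of that range in these values was not tested. Between the factors themselves, Gata6 and Cdx1 had an r of 0.71, and 0.30 without the 2 groups farthest from the median of Gata6.

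Of the caudal list, Hox genes and other posterior genes, 18 of 20 were measured, and retinoic acid raised 8 and lowered 2 (55.6% called, beside 9.82% of all probe sets). The list's median was 0.03, since its other members were near DMSO. The rises were led by Cyp26a1, the enzyme that degrades retinoic acid (from 6.64 in DMSO to 10.65), and by Hoxb1 (1.49), Hoxa5 (1.47) and Hoxb4 (0.99). Those that fell were Fgf17 (-0.38) and Hoxd9 (-0.30). Loratadine lowered 6 of the 18 (33.3% called, beside 19.2% of all probe sets), among them Gbx2 (-0.55) and Wnt8a (-0.35), and raised none. VPA lowered 5 and raised none (27.8%, near its 26.5% over all probe sets), with Fgf17 (-0.85), Gbx2 (-0.70) and Wnt5a (-0.54) lowest. Of the trophoblast list, which bears on the other role of Cdx2, 17 of 18 were measured, and retinoic acid raised Tfap2c (0.76) and lowered Ascl2 (-0.60), 11.8% beside 9.82% of all probe sets. VPA raised Ascl2 (0.35) and Gata2 (0.17) and lowered Fgfr2 (-0.20), 17.6% beside 26.5%.

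Gata4, the zinc finger partner of Gata6, was called with VPA alone and only just. The DMSO arrays read 8.10, 8.28 and 8.02, and the VPA arrays 8.28, 8.35 and 8.36. The groups overlap, since the lowest VPA array lies just below the highest DMSO array. The difference was 0.20 ± 0.076 (limma adjusted p = 0.0498). It was lost without any 1 of the VPA arrays (limma adjusted p = 0.0575, 0.126 and 0.136), without DMSO replicate 1 (0.142) or DMSO replicate 3 (0.14, 0.263), and after quantile normalisation (0.0971). Dexamethasone gave a like difference, 0.19 ± 0.076, that was not called (limma adjusted p = 0.119).

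Foxa2, the forkhead factor of definitive endoderm and the axial midline, was called with dexamethasone. Its DMSO arrays read 7.72, 7.77 and 7.66, and its dexamethasone arrays 7.85, 7.99 and 8.09. The 3 treated arrays were all above DMSO. The difference was 0.26 ± 0.078 (limma adjusted p = 0.0367). The highest Foxa2 array of the group was replicate 3, the one of low interquartile range, and without it the difference was 0.20 (limma adjusted p = 0.171). The call was also lost without DMSO replicate 1 (0.0934) or 3 (0.175).

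Over the 20 group means Foxa2 ran opposite to the interquartile range of the arrays, with a Pearson r of -0.84 and a Spearman rho of -0.82. Hydrochlorothiazide gave the same picture, with Foxa2 at 8.07 and 7.99 on its arrays of low range and at 7.63 on the remaining one. With the interquartile range as a covariate, the Foxa2 difference with dexamethasone was 0.14 (limma adjusted p = 0.335), and its F test over the 20 groups gave an adjusted p of 0.380 in place of 0.00297. The r with the interquartile range was -0.69 for Gsc (rho -0.71), -0.64 for Gata4 (rho -0.63) and -0.57 for Cdx1 (rho -0.80). For Sox17 it was -0.54 (rho -0.52), for Cdx2 -0.50 (rho -0.71) and for Mixl1 -0.29 (rho -0.50). It was near 0 for Eomes (0.05, rho -0.11) and Gata6 (-0.02, rho -0.19). By rho, Cdx1 ran about as far opposite to the range as Foxa2. The highest r between any pair of the 9 was 0.73, for Gsc and Foxa2, both of which ran opposite to that range, and its part in this value was not tested.

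Sox17, the HMG box factor of definitive and primitive endoderm, was called with no compound by limma, and no unadjusted p was under 0.05. Its DMSO arrays read 7.18, 7.05 and 6.95. The differences ran from -0.20 ± 0.119 (sulfasalazine) to 0.19 ± 0.119 (hydrochlorothiazide). Sox17 had the largest spread within groups of the 9 factors, with a pooled SD of 0.154. Its mean over all arrays was 7.02, below the median of the tested probe sets (8.09). Whether it stood above background was not tested, which limits what the lack of calls can show.

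Of the endoderm list, 27 of 28 genes were measured. VPA raised 4 and lowered 5 (33.3% called, beside 26.5% of all probe sets; median -0.02 against -0.01 over all). Loratadine gave the same counts, 4 and 5 (beside 19.2% of all probe sets). Both raised Dab2 (0.42 with VPA, 0.32 with loratadine), an endocytic adaptor, and Cldn6 (0.42 and 0.26), a tight junction gene. Trh, which encodes thyrotropin-releasing hormone, was lower with both (-0.82 with VPA, -0.28 with loratadine). Retinoic acid raised Lama1 (0.31) and Foxa1 (0.30), the paralogue of Foxa2, and lowered Fst (-0.43) and Sparc (-0.13), while Foxa2 itself was not called. That is 14.8% of the list, beside 9.82% of all probe sets. Paracetamol raised 2 and lowered 4 (22.2%, beside 8.76%), and sulfasalazine raised 1 and lowered 3 (14.8%, beside 8.90%). Glybenclamide lowered 1 (3.7%, beside 9.54%). With chlorthalidone, hydrochlorothiazide and dexamethasone none of the 27 was called by limma, beside 2.58%, 2.17% and 6.25% of all probe sets. At such shares a list of 27 would hold few calls.

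The 4 compounds with most calls were also compared with each other directly, in 6 contrasts at doses that differ. Between VPA and retinoic acid 4 of the 9 factors differed, beside 33.1% of all probe sets. Gata6 was lower with VPA (-0.97, limma adjusted p = 3.27e-12), as were Eomes (-0.36) and Cdx1 (-0.35), and Gata4 was higher with VPA (0.19, limma adjusted p = 0.0434). Between loratadine and retinoic acid 4 differed, beside 20.6%: Gata6 (-1.03), Eomes (-0.57), Cdx1 (-0.47) and Mixl1 (-0.18) were lower with loratadine. Between retinoic acid and glybenclamide 4 differed, beside 13.1%: Gata6 (0.99), Cdx1 (0.43), Eomes (0.40) and Cdx2 (0.32, limma adjusted p = 0.0207) were higher with retinoic acid.

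The remaining contrasts were among VPA, loratadine and glybenclamide, the 3 of these compounds that lowered Eomes. VPA and loratadine differed in 3 of 9, beside 29.4% of all probe sets: Mixl1 (0.34), Gata4 (0.26) and Eomes (0.22, limma adjusted p = 0.0110) were higher with VPA. VPA and glybenclamide differed in Mixl1 (0.26, limma adjusted p = 0.00163), 1 of 9, beside 28.9%. For Eomes that difference was 0.04, with a 95% interval from -0.09 to 0.18. Loratadine and glybenclamide differed in 0 of 9 by limma, beside 6.81% of all probe sets. The Eomes value there was -0.17, with a 95% interval from -0.31 to -0.04 and an adjusted p of 0.120 in limma.

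**Figure D5:**
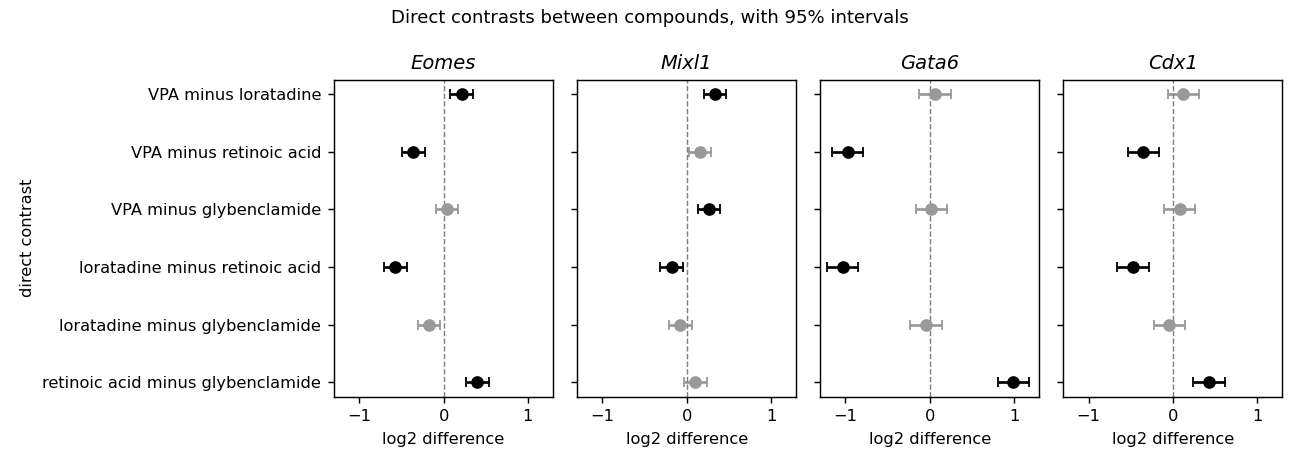
Differences in log2 signal between pairs of the 4 compounds with most calls, for Eomes, Mixl1, Gata6 and Cdx1; points are differences, bars 95% intervals, and black marks those called. Gata6 sets retinoic acid apart from each of the other 3, by 0.97 to 1.03, and Mixl1 separates VPA from loratadine (0.34) and from glybenclamide (0.26).

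Loratadine stood below DMSO in all 9 factors (median -0.17, beside -0.04 over all probe sets), although 2 were called. Without loratadine replicate 3, 8 of the 9 were below DMSO, the exception being Gsc. Penicillamine stood above DMSO in all 9 (median 0.08, beside 0.05 over all probe sets), and none was called by limma. Without replicate 2, the array with the highest median of all 60, 6 were above DMSO and 3 below (Gsc, Sox17 and Cdx1), with a median near 0 (0.0038). Of all 21789 probe sets 0 were called with penicillamine, and 1850 had an unadjusted p of under 0.05. For 11 compounds no factor was called. Of these 11, 5 had calls elsewhere: paracetamol (8.76% of all probe sets), clozapine (1.31%), ondansetron (0.330%), metoclopramide (0.197%) and dimethadione (0.119%). With penicillamine, thalidomide, 5-azacytidine, fluconazole, topiramate and methotrexate, limma called 0 probe sets of any gene. Over the 99 factor comparisons of these 11 compounds, 7 had an unadjusted p of under 0.05.

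Teratogens and non-teratogens were compared over the compound means, 10 against 9. By limma 0 of the 9 factors and 0 of all probe sets were called, each factor with an adjusted p of 0.976. Of the 9, 2 (Eomes and Cdx2) had an unadjusted p of under 0.05, as had 955 of all probe sets. All 9 means were higher among the teratogens, but the 9 share the same arrays and are not separate counts. The share of all probe sets in that direction was not computed. Among the teratogens, penicillamine was above DMSO in all 9, which depended on its replicate 2. Among the non-teratogens, loratadine was below DMSO in all 9. For Eomes the means were 8.04 ± 0.145 (SD over compounds) and 7.86 ± 0.210, a difference of 0.18 ± 0.074 (SE) and the exact two-sided permutation test of these means gave p = 0.0479. That test was run for each of the 9 factors and its p values are unadjusted; they ran from 0.0307 (Cdx2, exact permutation test) to 0.405 (Sox17).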

How the data were processed

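RNA of R1 mouse embryonic stem cells was measured on 60 Affymetrix arrays. The authors deposited 1 log2 signal per probe set and array, made with RMA (robust multi-array averaging) per the submitters' processing notes. Version, options and genome build were not given in the sources used here. Of 35556 probe sets, 21789 carry a single gene symbol in the platform annotation and were tested.

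The deposited log2 values were used as they stand. limma 3.58.1 in R 4.3.3 was fitted to all 60 arrays with a mean per group (40 residual and 7.31 prior degrees of freedom), and p-values were adjusted by the Benjamini-Hochberg method over all tested probe sets within each comparison, with 0.05 as the threshold. Contrasts were formed between each compound and DMSO and between the 4 compounds with most calls. A moderated F test covered the 20 groups. Classes were compared over 19 compound means, with limma and an exact permutation test. Each fit was tested on simulated data. Arrays have no read depth, and 3 arrays per group limit the precision.

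The 9 genes and the gene lists were chosen with earlier results of these data known. All 9 genes are described, with values per array for those called. For each list the genes named are called members with large changes. For likeness the 3 genes of highest Pearson r are named above for Eomes, Gata6 and Cdx1. Mixl1, Gata4, Foxa2 and Cdx2 also passed the F test. For Mixl1 the 3 were Cd79b, Cfap410 and Stmn4 (r 0.89 to 0.85), and for Gata4 Myoz2, Zbtb46 and Tsnaxip1 (0.90 to 0.89). For Foxa2 they were Olfr91, Slc7a15 and Oit1 (0.94 to 0.93), and for Cdx2 4931408C20Rik, Fzd1 and Ces1d (0.87 to 0.83). Replicate numbers follow the order of the samples and pair nothing. Gene positions are not used here, apart from RefSeq promoter windows. Alternatives were another normalisation, a filter on dim probe sets, all probe sets of the table, other prior settings, covariates (the array's interquartile range, and the letter b that marks some titles), fewer arrays and another reference.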

Additional observations from a re-analysis of the deposited data

Results flagged for a closer look

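Within each class, the compound means of each of the 9 factors were examined for a single compound standing far from the others. Of 18 such groups, 2 held one, and chance alone gives about 1 in 20. Gata6 with retinoic acid (8.74) stood apart from the other teratogens, the nearest of which was penicillamine (7.96), by 0.797 of the whole range of the 10 means. Sox17 with hydrochlorothiazide (7.25) stood apart from the other non-teratogens, the nearest of which was clozapine (7.06), by 0.493 of the range of the 9 means. It only just reached the cutoff of the rule used, Dixon's Q test, which is also 0.493 for 9 means. This compound's Sox17 value was not called against DMSO. Groups of 3 arrays were not examined in this way.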

How the results depend on the processing

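The 12 called comparisons with DMSO had 170 values under alternatives; all 170 kept their direction, and 130 remained called. Comparisons that were not called were followed by counts only. Loratadine, chlorthalidone, glybenclamide and VPA against DMSO for Eomes, and retinoic acid for Gata6, were called each time they were tested. Of 225 counts of called factors under alternatives other than a left-out array, 187 stayed within 1.5 times the count reported and 38 moved. With dim probe sets left out, 3 of the 9 factors remain (Gsc, Gata4, Cdx1), and the counts were 0 for chlorthalidone, glybenclamide, hydrochlorothiazide, dexamethasone, loratadine and sulfasalazine, and 1 for retinoic acid and VPA. The F test then had 2, VPA minus loratadine, loratadine minus retinoic acid and retinoic acid minus glybenclamide 1 each, and VPA minus retinoic acid 2. Over all probe sets of the table VPA had 1, with trend and robust settings glybenclamide had 2, and with the letter b as a covariate dexamethasone had 1. With the interquartile range as a covariate, hydrochlorothiazide and dexamethasone had 0, loratadine 1 and VPA minus glybenclamide 2. Without the 3 arrays of low range, hydrochlorothiazide had 0, dexamethasone 1 and VPA minus glybenclamide 2. In fits of 6 arrays, hydrochlorothiazide, dexamethasone and sulfasalazine had 0, and retinoic acid, loratadine and VPA 1. Against the average of the remaining 18 compounds in place of DMSO, loratadine had 4, hydrochlorothiazide 3, penicillamine and glybenclamide 2, azacytidine, dimethadione, metoclopramide and paracetamol 1, and sulfasalazine 0. The cause of these moves was not tested.

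Leaving out 1 array at a time, the counts ran from 0 to 3 for hydrochlorothiazide (3 without its replicate 3) and for dexamethasone, from 1 to 3 for loratadine, from 1 to 2 for glybenclamide (2 without DMSO replicate 3), retinoic acid and VPA, and from 0 to 1 for sulfasalazine. Chlorthalidone had 1 throughout, and the other 11 compounds had 0. Over all tested probe sets, the alternatives gave 194 to 1019 calls for chlorthalidone (562 reported), 1126 to 2717 for glybenclamide (2079), 876 to 3816 for retinoic acid (2140), 0 to 8508 for hydrochlorothiazide (473), 1 to 7466 for dexamethasone (1361), 2723 to 5191 for loratadine (4184), 297 to 3031 for sulfasalazine (1940) and 4861 to 7559 for VPA (5778). In the F test, Gata4 had adjusted p of 0.0590 to 0.0628 in limma under 3 of the alternatives. No paired analysis was possible because the labels number no replicates. A mean over a gene's probe sets was not run, as each factor has 1.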
